A study of Mus musculus with 5 samples.

Results

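Chromatin remodelling and histone modifying genes were followed through an RNA immunoprecipitation and microarray (RIP-chip) experiment in mouse embryonic stem cells. The genes were taken from the platform's probe-to-gene table as every probe set with 1 gene symbol that begins with Kdm, Hdac, Smarc, Arid, Setd, or Chd and a digit, together with Ezh2, Eed, Suz12, Kat2a and Ep300. The rule gave 77 genes of 19937 with a symbol on the array, held by 116 probe sets, and the brightest probe set stood for each gene. Of the 77 genes, 71 passed a filter on signal level, a mean log2 value at or above 5.76 over the 5 arrays, and are termed kept genes.

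The cells were R1, a male line of strain 129X1 x 129S1 derived from the inner cell mass, grown with LIF and serum. All lines were G418-resistant clones with a construct driven by the constitutive pCAGGS promoter, so MKRN1 was studied under forced expression. The tagged line carried a FLAG:MKRN1 fusion, and the control line the FLAG construct without MKRN1 (FLAG:Ctrl). MKRN1 is a makorin, a RING-domain zinc finger protein. Each group was 1 array. Anti-FLAG beads were used on FLAG:MKRN1 lysate and, as a control, on FLAG:Ctrl lysate (the Ctrl RIP), IgG beads were used on FLAG:MKRN1 lysate (the IgG RIP), and an aliquot of each lysate taken beforehand was the input (the MKRN1-labelled and Ctrl inputs). For each array 10 ng of RNA was made into cDNA. With no replicates there is no replicate error, no test was possible, and every difference below is a difference of deposited log2 values between single arrays. A gene is described as called when its signal with anti-FLAG beads on FLAG:MKRN1 lysate was at least 2-fold (a log2 difference of 1) away from both control RIPs, the Ctrl RIP and the IgG RIP, and on the same side of its own input.

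Mkrn1 RNA did not mark the tagged line. Its log2 signal was 11.90 with anti-FLAG beads on FLAG:MKRN1 lysate, 12.20 in the Ctrl RIP, 11.99 in the IgG RIP, 11.71 in the MKRN1-labelled input and 11.80 in the Ctrl input. The anti-FLAG RIP labelled FLAG:MKRN1 is therefore called the MKRN1-labelled RIP, and every direction drawn from it rests on that label. This array also stood apart from the rest, with Pearson's r across all probe sets of 0.959 to 0.967 against each of the other 4, while the Ctrl RIP and the IgG RIP had r of 0.992. All 8 stem cell markers, Pou5f1, Nanog and Sox2 among them, lay above the level filter, with medians of 11.2 to 11.4 on the 5 arrays. Of 9 fibroblast feeder markers 4 did so, the brightest being Thy1 at 8.25 to 9.88, while Lum, Dcn, Postn and Fap lay between 3.64 and 4.96. The part that feeder RNA plays in the results was not tested.

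The genes encode enzymes and machines that open, close and mark chromatin. Kdm proteins remove methyl groups from histones, Setd proteins carry the SET domain that adds them, Hdac proteins remove acetyl groups, and Ep300 and Kat2a add them. Smarc, Chd and some Arid proteins act in, or guide to DNA, machines that use ATP to move nucleosomes. The other Arid genes share the symbol and not this role. Ezh2, Eed and Suz12 form the core of Polycomb repressive complex 2, which places a repressive methyl mark on histone H3. Embryonic stem cells keep their genome unusually open, and several of these factors, such as Chd1 and the stem cell form of the SWI/SNF complex, are known for a part in that state.

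The question set by the design was which RNAs come down with FLAG:MKRN1 more than with either kind of control bead or lysate. For this group of genes the MKRN1-labelled RIP held less signal, not more. Of the 71 kept genes, 10 were at least 2-fold below both control RIPs and below the input of the same lysate, a share of 14.1%, against 5.36% of all 11502 kept genes. None was called higher, as 1.09% of all kept genes were. The 10 were Kdm5a, Kdm7a, Kdm6a, Kdm3a, Kdm5b, Kdm4c, Ep300, Chd1, Setdb1 and Arid2. Arid2, Kdm4c and Kdm5b fell short of this rule after quantile normalization. Both sets of differences use the same MKRN1-labelled array, so they are not independent of each other.

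**Figure D1:**
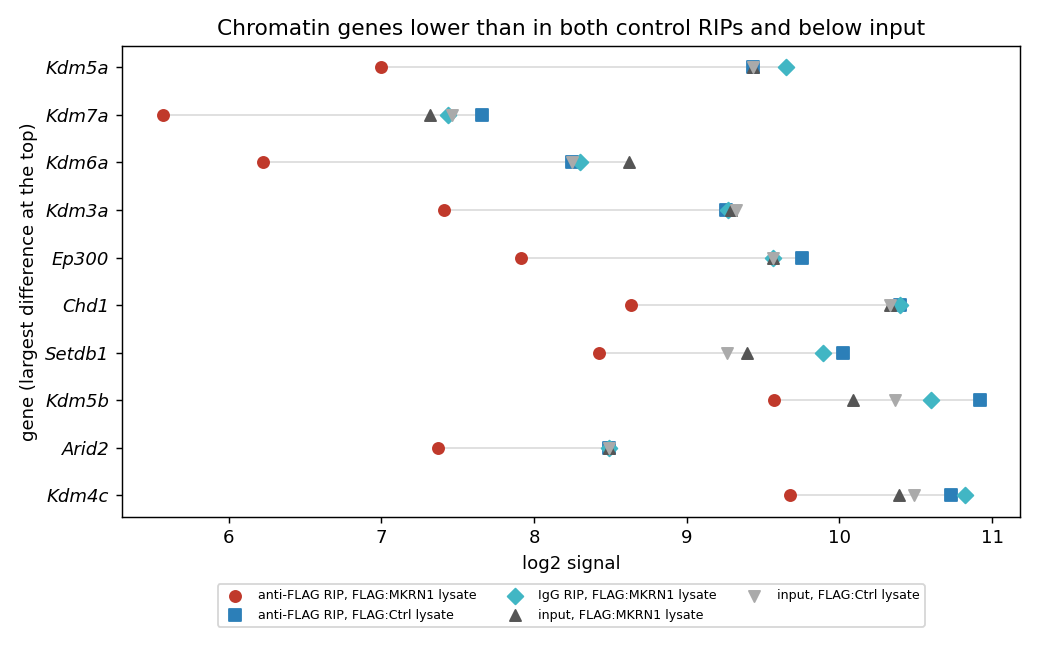
Log2 signal (horizontal axis) of the 10 called genes on each of the 5 arrays, 1 point per array, with no error bars because each group is 1 array. The MKRN1-labelled RIP lies left of the other 4 arrays for all 10 genes, by the widest margin for Kdm5a and by the narrowest for Kdm5b.

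Taken against each control RIP alone, 11 of the 71 genes were at least 2-fold lower than in the Ctrl RIP (7.11% of all kept genes were) and 11 were at least 2-fold lower than in the IgG RIP (6.94% of all kept genes). None was at least 2-fold higher than either, as 1.62% and 1.53% of all kept genes were. The median difference of the 71 genes was -0.52 from the Ctrl RIP and -0.46 from the IgG RIP, beside -0.03 and -0.00 over all kept genes. Against the MKRN1-labelled input the median was -0.39, beside 0.00 over all kept genes, and 9 of the 71 lay at least 2-fold below it (5.51% of all kept genes), with none that far above (2.47%). The MKRN1-labelled RIP gave the lowest of the 5 values for 43 of the 71 genes, or 60.6%, and for 32.6% of all kept genes. It gave the highest for 8, or 11.3%, and for 29.5% of all kept genes. The control RIPs lay close together over these genes, with an SD of their difference of 0.15 and a largest gap of 0.51, at Hdac2. Between bulk lysates a lower signal from fewer cells and from less RNA per cell cannot be told apart. The IgG RIP and the MKRN1-labelled input came from the same FLAG:MKRN1 lysate as the MKRN1-labelled RIP. Differences from these arrays therefore compare RNA recovered from 1 lysate.

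The families differed in how far they lay from the controls. The median difference from the Ctrl RIP was -0.78 over 16 Kdm genes, -0.74 over Ezh2, Eed, Suz12, Kat2a and Ep300, -0.70 over 10 Chd genes, -0.60 over 9 Arid genes, -0.49 over 10 Setd genes, -0.23 over 12 Smarc genes and -0.17 over 9 Hdac genes. Against the IgG RIP the Smarc median was nearer 0, at -0.10, the Hdac median was -0.46, and the Kdm median was the lowest, at -0.82. Of the 10 called genes 6 were Kdm genes, or 37.5% of the 16, beside 5.36% of all kept genes. None of the 12 Smarc or 9 Hdac genes was called, which in groups of this size is not set apart from that share. A dimmer probe set of Hdac1, not used for the gene, did meet the rule. Median log2 levels were 7.25 for Hdac, 8.09 for Kdm, 8.27 for Arid, 9.05 for Setd and 9.08 for Chd genes. They were 9.68 for Smarc genes and 10.8 for Ezh2, Eed, Suz12, Kat2a and Ep300. Differences went with level in all genes, and families were not compared at matched level. The differences between families were not tested.

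**Figure D2:**
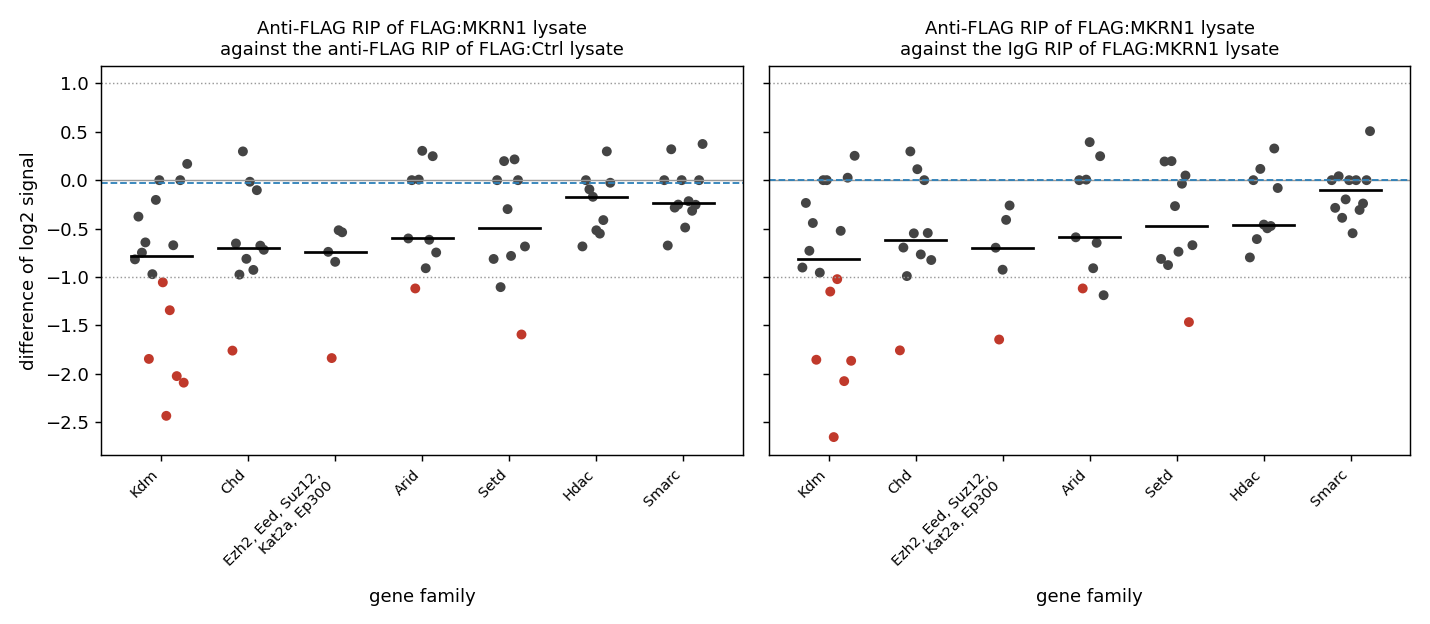
Difference of log2 signal between the MKRN1-labelled RIP and each control RIP for the 71 kept genes, by family. Points are genes, red points the 10 called genes and black bars family medians. The dashed line is the median of all kept genes, and dotted lines mark 2-fold. Kdm genes reach furthest down. None of 12 Smarc and 9 Hdac genes is called, where 5.36% of all kept genes are.

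Among the demethylases, Kdm5a lay lowest. It removes methyl groups from the histone mark of active promoters. Its log2 signal was 6.997 in the MKRN1-labelled RIP, 9.43 in the Ctrl RIP, 9.65 in the IgG RIP, and 9.43 in each of the MKRN1-labelled and Ctrl inputs. It was thus 5.41-fold and 6.30-fold below the Ctrl and IgG RIPs, and the other 4 arrays lay within 0.22 of each other. Its paralogs lay less far down. Kdm5b, of the same specificity, had 9.57 in the MKRN1-labelled RIP, 10.92 in the Ctrl RIP, 10.60 in the IgG RIP, 10.09 in the MKRN1-labelled input and 10.36 in the Ctrl input. It was 2.54-fold and 2.03-fold below the control RIPs and 1.43-fold below its own input, and both control RIPs lay above their inputs. The X-linked Kdm5c lay at -0.67 and -0.52 relative to the Ctrl and IgG RIPs, short of 2-fold.

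Kdm6a and Kdm6b remove the mark that Polycomb repressive complex 2 places, and they stood far apart. Kdm6a had a log2 signal of 6.22 in the MKRN1-labelled RIP, 8.25 in the Ctrl RIP, 8.30 in the IgG RIP, 8.62 in the MKRN1-labelled input and 8.25 in the Ctrl input. It was 4.07-fold and 4.22-fold below the control RIPs and 5.27-fold below its input. Kdm6b was at 7.04 in the MKRN1-labelled RIP and between 6.96 and 7.05 on the other 4 arrays, so it was level across the experiment. Kdm5a and Kdm6a were the 2 members still called when the threshold was raised to 4-fold.

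The Kdm3 genes, whose products demethylate the heterochromatin mark on histone H3, were both lower. Kdm3a had 7.41 in the MKRN1-labelled RIP, 9.26 in the Ctrl RIP, 9.27 in the IgG RIP, 9.29 in the MKRN1-labelled input and 9.32 in the Ctrl input, a 3.60-fold and 3.62-fold deficit against the control RIPs. Its other 4 arrays lay within 0.07 of each other. Kdm3b differed by -0.97 and -0.96, just inside 2-fold. Kdm7a, a demethylase that reads and erases histone methylation, was at 5.57 in the MKRN1-labelled RIP, 7.66 in the Ctrl RIP, 7.43 in the IgG RIP, 7.32 in the MKRN1-labelled input and 7.46 in the Ctrl input. Its value in the MKRN1-labelled RIP was below the level filter.

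The Kdm4 genes, further demethylases of the heterochromatin mark, spread widely. Kdm4c had 9.67 in the MKRN1-labelled RIP, 10.73 in the Ctrl RIP, 10.83 in the IgG RIP, 10.39 in the MKRN1-labelled input and 10.49 in the Ctrl input. It was 2.08-fold and 2.22-fold below the control RIPs, near the threshold. Kdm4a differed by -0.20 from the Ctrl RIP and by 0.00 from the IgG RIP, and Kdm4b by 0.00 from both. The remaining demethylases lay between -0.82, for Kdm1a, which acts with corepressor complexes, and 0.17, for Kdm8, against the Ctrl RIP. Kdm8 was the dimmest kept member, with a mean of 5.91, and Hdac9 the brightest left out, with a mean of 5.31.

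Chd1, a remodeller that binds active genes, was the lowest of its family. Its log2 signal was 8.64 in the MKRN1-labelled RIP, 10.40 in the Ctrl RIP, 10.40 in the IgG RIP, 10.33 in the MKRN1-labelled input and 10.33 in the Ctrl input. This made it 3.39-fold and 3.38-fold below the control RIPs, whose values and those of the inputs lay within 0.07 of each other. Chd2 followed at -0.98 and -0.99, Chd6 at -0.93 and -0.77, and Chd4, the ATPase of the NuRD repressor complex, at -0.81 and -0.55. Chd9 and Chd8 had differences from the Ctrl RIP of -0.72 and -0.68, and Chd9 lay furthest below its own input after Chd1, at -1.17. Chd3, a paralog of Chd4 with a mean level of 6.52, was the highest, at 0.30 from each control RIP. Chd5 lay at -0.02 and 0.11.

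Ep300, an acetyltransferase of active enhancers, had 7.92 in the MKRN1-labelled RIP, 9.76 in the Ctrl RIP, and 9.56 in the IgG RIP and in each input. It was 3.58-fold and 3.13-fold below the Ctrl and IgG RIPs. Kat2a, the acetyltransferase of the SAGA complex, lay at -0.52 and -0.41. The Polycomb core was lower by moderate amounts. Ezh2, its methyltransferase, was at 10.62 in the MKRN1-labelled RIP, 11.47 in the Ctrl RIP, 11.55 in the IgG RIP, 11.47 in the MKRN1-labelled input and 11.46 in the Ctrl input, differences of -0.84 and -0.93 from the control RIPs. Eed, which reads the mark, differed by -0.74 and -0.70, and Suz12, the scaffold, by -0.54 and -0.26. For each of these 5 genes the MKRN1-labelled RIP gave the lowest of the 5 values.

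The nucleosome-remodelling complexes of the SWI/SNF type hold products of many Smarc genes and of some Arid genes, namely Arid1a, Arid1b and Arid2. These parts did not lie together. Arid2, which defines the PBAF form, had 7.37 in the MKRN1-labelled RIP and 8.49 on each of the other 4 arrays, a 2.17-fold deficit against either control RIP. Arid1a, which defines the BAF form, lay at -0.60 and -0.59, and its paralog Arid1b at 0.00 from both, with the same value of 6.58 on all 5 arrays. The other Arid genes are grouped here by symbol and not as parts of these complexes. Among them, Arid4a had differences of -0.91 from each control RIP, and Arid5b -0.75 from the Ctrl RIP and -1.19 from the IgG RIP. Arid3b was the highest, with 8.68 in the MKRN1-labelled RIP, 8.37 in the Ctrl RIP and 8.28 in the IgG RIP.

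None of the 12 kept Smarc genes was called, where 5.36% of all kept genes were. Smarca4, the ATPase of the stem cell SWI/SNF complex, was the lowest at -0.68 from the Ctrl RIP, but lay at -0.29 from the IgG RIP and -0.13 from its own input. Its values were 9.41 in the MKRN1-labelled RIP, 10.09 in the Ctrl RIP, 9.70 in the IgG RIP, 9.54 in the MKRN1-labelled input and 9.70 in the Ctrl input. The core subunit genes Smarcc1 and Smarcb1 differed by -0.49 and 0.00 from the Ctrl RIP. Smarca5, the ISWI ATPase, was level to slightly higher, with 11.76 in the MKRN1-labelled RIP, 11.44 in the Ctrl RIP, 11.72 in the IgG RIP, 11.66 in the MKRN1-labelled input and 11.58 in the Ctrl input. Smarce1 was the highest of all 71 genes, at 0.37 and 0.51 from the Ctrl and IgG RIPs, with 10.77 in the MKRN1-labelled RIP, 10.40 and 10.27 in those RIPs, 10.60 in the MKRN1-labelled input and 10.68 in the Ctrl input. Its other 2 probe sets lay at 0.03 and 0.00 from the Ctrl RIP.

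Setdb1, a methyltransferase known in embryonic stem cells for silencing endogenous retroviruses, was the lowest Set domain gene. Its log2 signal was 8.43 in the MKRN1-labelled RIP, 10.02 in the Ctrl RIP, 9.89 in the IgG RIP, 9.39 in the MKRN1-labelled input and 9.26 in the Ctrl input. It was 3.02-fold and 2.76-fold below the control RIPs and 1.95-fold below its own input, and the control RIPs lay above both inputs. Setd2, which marks the bodies of transcribed genes, had 8.64 in the MKRN1-labelled RIP, 9.74 in the Ctrl RIP, 9.51 in the IgG RIP, 8.89 in the MKRN1-labelled input and 9.22 in the Ctrl input. It was 2.15-fold and 1.84-fold below the Ctrl and IgG RIPs, so it passed 2-fold against the first alone. Setd1a, the catalytic subunit of a COMPASS complex, lay at -0.81 from each, and its paralog Setd1b at 0.00 and 0.19. Setd3 and Setd6, which methylate proteins other than histones, were at 0.20 and 0.21 from the Ctrl RIP, the top of the family, though Setd6 lay at -0.04 from the IgG RIP.

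Of the deacetylases, Hdac1 was the lowest. It had 11.34 in the MKRN1-labelled RIP, 12.03 in the Ctrl RIP, 12.14 in the IgG RIP, 11.99 in the MKRN1-labelled input and 11.92 in the Ctrl input, which put it 1.61-fold and 1.74-fold below the control RIPs. Hdac2, its partner in the same corepressor complexes, had 11.69 in the MKRN1-labelled RIP, 11.79 in the Ctrl RIP, 12.30 in the IgG RIP, 11.79 in the MKRN1-labelled input and 11.30 in the Ctrl input, so that its 2 background RIPs differed more than the MKRN1-labelled RIP did from the Ctrl RIP. Hdac7 was the highest, at 0.30 and 0.33. Hdac10 had the same value, 6.16, on all 5 arrays.

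Exact ties of this kind were common. Of the 71 genes 40 had the same value, within 1e-06, on at least 2 arrays and 19 on at least 3. Between the MKRN1-labelled RIP and each other array 6.77% to 8.74% of all kept genes were tied. Between pairs of the other 4 arrays 14.1% to 19.2% were. The processing that gave the ties is not given in the sources used here, and close agreement among the other 4 arrays is therefore no measure of their error.

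The difference went with signal level, both in these genes and in all genes. In the upper tertile of kept genes by mean signal, from 8.49, the median difference from the Ctrl RIP was -0.70 over 36 of the chromatin genes and -0.30 over all genes. In the middle tertile it was -0.41 over 23 of them and -0.09 over all genes. In the lower tertile, below 6.90, it was 0.00 over 12 of them and 0.09 over all genes. Called genes made up 19.4% of the chromatin genes in the upper tertile, beside 10.3% of all genes there, and 13.0% in the middle tertile, beside 5.40%. The chromatin genes were brighter than kept genes in general, with a median level of 8.68 beside 7.61. With the trend of difference with level removed, their medians were -0.31 and -0.24 from the Ctrl and IgG RIPs. Of the 10 calls 7 then remained, or 9.86% of the 71 genes, beside 3.01% of all kept genes. Transcript and protein lengths were not used here, so whether the differences go with length was not tested.

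**Figure D3:**
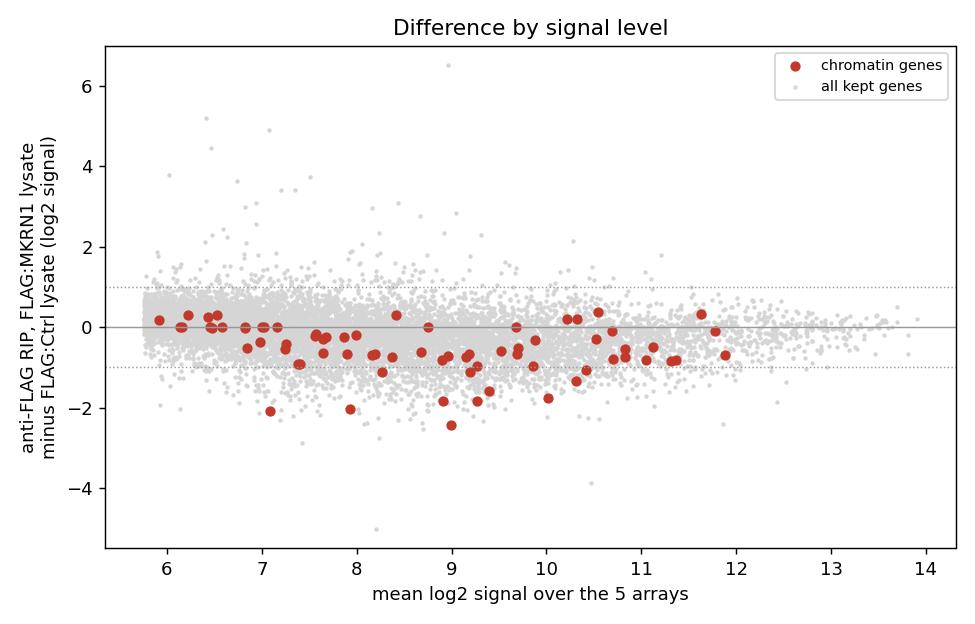
Difference of log2 signal between the MKRN1-labelled RIP and the Ctrl RIP (vertical axis) against mean log2 signal over the 5 arrays, with the 71 chromatin genes in red, all kept genes in grey and dotted lines at 2-fold. Dim chromatin genes lie around 0, and those in the upper tertile have a median of -0.70, beside -0.30 for all genes there.

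Before immunoprecipitation the probe sets used gave a median difference of 0.00 between the MKRN1-labelled and Ctrl inputs. By these probe sets no kept member differed by 2-fold, where 0.791% of all kept genes were at least 2-fold lower and 0.878% higher. With shares this small, that does not set the 71 genes apart from all kept genes. Other probe sets did pass 2-fold, the dimmer probe set of Kdm7a at -1.22 and those of Chd7 at up to -1.44 and 1.21. The lowest were Hdac8, a class I deacetylase, at -0.57, Arid3a at -0.36 and Setd2 at -0.33. The highest were Setdb2 at 0.51, Hdac2 at 0.49 and Smarcc2, a SWI/SNF core subunit, at 0.46. Hdac8 had 6.01 in the MKRN1-labelled input and 6.58 in the Ctrl input, but 6.55 to 6.63 in the RIPs. The control RIPs stayed close to their inputs, with median differences of 0.07 in the Ctrl RIP and 0.04 in the IgG RIP. No kept member was 2-fold away from input in either, where 0.374% and 0.461% of all kept genes were lower and 0.948% and 1.32% higher.

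Several genes had more than 1 probe set, and these did not always give the same value. Of 10 such genes, Chd7, whose product is mutated in CHARGE syndrome in humans, had 30, all above the level filter. Its brightest probe set was at 10.70 in the MKRN1-labelled RIP, 10.80 in the Ctrl RIP, 10.70 in the IgG RIP, 10.56 in the MKRN1-labelled input and 10.70 in the Ctrl input, a gene at background by the main rule. Over all 30 the difference from the Ctrl RIP ran from -3.15 to 0.44 with a median of -0.46, and from the IgG RIP from -2.55 to 0.71 with a median of -0.29. Of the 30 probe sets, 6 were at least 2-fold below both control RIPs and below input, and none was that far above. They also disagreed between the inputs, from -1.44 to 1.21. The probe sets read 1 gene's transcripts and are not replicates.

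**Figure D4:**
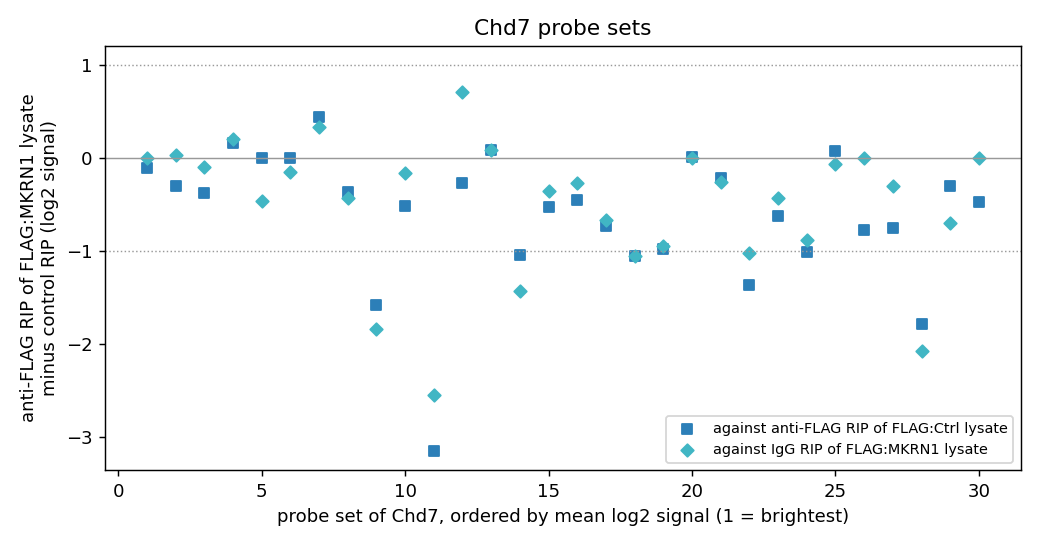
Difference of log2 signal between the MKRN1-labelled RIP and each control RIP for the 30 probe sets of Chd7, ordered from the brightest at the left to the dimmest at the right, with dotted lines at 2-fold. Most points lie between -1 and 0, the lowest is at -3.15, and none reaches 2-fold above a control RIP.

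For Setd2 the dimmer probe set lay further down than the one used, at -2.16 and -1.91 from the Ctrl and IgG RIPs, and met the calling rule. Likewise the dimmer probe set of Hdac1 lay at -1.26 and -1.55 and met it. The dimmer probe set of Kdm7a lay at -1.03 and -0.83 and, at 6.03 in the MKRN1-labelled RIP, was 0.13 above its own input. It also differed by -1.22 between the MKRN1-labelled and Ctrl inputs, where the brighter 1 differed by -0.14. The other probe set of Eed was below the level filter, at 0.08 from each control RIP. Whether any of these probe sets also reads a related copy elsewhere in the genome is not known here.

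Promoter sequences are shown for called genes and for members that were level, as a description of their starts. RefSeq promoters of build GRCm38.p6, from 250 bases before to 50 after each listed start, were held for 60 of the 77 genes, 77 promoters in all. They were rich in CG dinucleotides, with a median of 25 in 300 bases beside 7 over all 32851 promoters. The GC box GGGCGG was found on either strand in 63.6% of them and in 35.7% of all promoters. The core ETS motif CCGGAAG was found in 13.0% and 8.86%, CCAAT in 40.3% and 37.4%, and TATAAA in 6.49% and 13.6%, each counted on both strands. For 7 of the called genes 10 promoters were held, of which 8 had the GC box, 3 the ETS motif, 2 CCAAT and none TATAAA, with a median of 22.5 CG dinucleotides. The 100 bases before the start are shown for 3 called genes, then for Smarca5 and Smarcb1, which were not lower than the Ctrl RIP. Capitals mark GGGCGG or CCGGAAG on either strand; CCAAT and TATAAA are in none of these 5 windows. They are, in order, chrX:18162475-18162574 on the plus strand, chr15:81586114-81586213 on the plus strand, chr3:95357203-95357302, chr8:80739460-80739559 and chr10:75921615-75921714, the last 3 on the minus strand.
Kdm6a: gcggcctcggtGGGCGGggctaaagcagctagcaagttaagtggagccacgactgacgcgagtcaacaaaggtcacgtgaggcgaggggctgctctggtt
Ep300: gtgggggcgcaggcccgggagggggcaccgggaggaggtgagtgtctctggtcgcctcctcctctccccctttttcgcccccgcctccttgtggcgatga
Setdb1: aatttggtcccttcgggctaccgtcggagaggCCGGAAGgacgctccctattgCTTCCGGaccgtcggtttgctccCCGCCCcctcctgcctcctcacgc
Smarca5: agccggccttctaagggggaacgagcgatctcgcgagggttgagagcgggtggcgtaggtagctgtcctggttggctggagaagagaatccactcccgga
Smarcb1: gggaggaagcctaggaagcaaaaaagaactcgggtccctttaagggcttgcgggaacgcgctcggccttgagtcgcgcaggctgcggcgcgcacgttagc
Within these windows Kdm6a had 1 GC box, Setdb1 had 1 GC box and 2 ETS motifs, and Ep300, Smarca5 and Smarcb1 had neither. The arrays measured RNA recovered from lysates, and no promoter was measured.

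Other genes of the same pathways were taken from 7 lists of partners and related enzymes. Of 142 kept genes on these lists, 11 were called lower, or 7.75%, and none higher, beside 5.36% and 1.09% of all kept genes. The median differences of the 142 genes were -0.22 from the Ctrl RIP and -0.17 from the IgG RIP. The gap to the 71 genes was not tested. The lists were not alike: the acetyltransferase medians were -0.36 and -0.40 and the INO80, SRCAP and TIP60 medians -0.36 and -0.30, nearer the 71 genes than all kept genes. Among 23 kept acetyltransferase genes 4 were called, or 17.4%. Crebbp, the close paralog of Ep300, was the lowest against the Ctrl RIP, at -1.26, with -1.21 from the IgG RIP, against which Sgf29 was the lowest at -1.49, while Tada2b was the highest at 0.22 and 0.56. Among 18 further SWI/SNF subunit genes 2 were called, or 11.1%. A count this small does not set that list apart from all kept genes. Pbrm1, the polybromo subunit that joins Arid2 in PBAF, was at -2.24 and -2.23, and Bcl11a was the highest at 0.60 from the Ctrl RIP.

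The other lists each held 2 calls or fewer, from 0.0% to 10.0% of their kept genes, beside 5.36% of all kept genes. Counts this small do not set these lists apart from all kept genes. Of 20 NuRD and corepressor genes 2 were called, with Gatad2b the lowest at -1.515 from both and Mbd3 the highest at 0.29 from the Ctrl RIP. Of 25 Polycomb partners 1 was called, Mtf2, at -1.07 from both; Phc3 was the lowest at -1.71 from the Ctrl RIP and -0.94 from the IgG RIP, and Bmi1 the highest at 0.64 and 0.49. Of 16 Trithorax and COMPASS genes 1 was called, Hcfc1, the host cell factor, at -1.51 from both, and Dpy30 was the highest at 0.03 from the Ctrl RIP. Of 22 INO80, SRCAP and TIP60 genes 1 was called, Ruvbl1, a helicase-like subunit, at -1.12 and -1.06, and Vps72 was the highest at 0.51 and 0.64. None of 18 other histone methyltransferase genes was called, with Nsd1 the lowest against the Ctrl RIP, at -0.94, Nsd2 against the IgG RIP, at -0.69, and Kmt5c the highest at 0.51 and 1.04.

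The 6 genes left out by the level filter were Arid3c, Hdac9, Hdac11, Kdm4d, Kdm5d and Smarca2, with means from 4.49 to 5.31. Smarca2, the alternative SWI/SNF ATPase to Smarca4, had the same value of 4.49 on all 5 arrays. Kdm5d, the Y-linked paralog of Kdm5c, had 4.88 in the MKRN1-labelled RIP, 4.35 in the Ctrl RIP and 4.42 in the IgG RIP and in both inputs.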

How the data were processed

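Per the labels, 5 arrays were hybridised with biotin-labelled cDNA by Affymetrix procedures. The deposited values are log2 signals, 1 for each probe set on each array, as judged from their range; how the authors corrected, summarised and normalized them is not given in the sources used here. Precision is limited by there being 1 array a group. Of 34760 probe sets, 21640 had 1 gene symbol in the platform annotation, 1321 several and 11799 none; 21553 matched RefSeq (GRCm38.p6), used for current symbols. The brightest probe set stood for each of 19937 genes, and 11502 genes with a mean at or above the median of probe-set means (5.76) were kept. Differences, medians and counts at 2-fold were computed with Python 3.11.15, numpy 2.4.6 and pandas 2.3.3; the calling rule was tested on simulated data. Named genes were those 2-fold from both control RIPs, family and list extremes, the 3 highest and 3 lowest input differences, genes whose probe sets differed in sign and those nearest the level filter; paralogs and subunits of these were named after their values were seen. Members, lists and naming rule were chosen with earlier results of these data known. A planned look at protein length was not run, as no protein table was used.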

Additional observations from a re-analysis of the deposited data

Results flagged for a closer look

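Over the 71 kept chromatin genes the anti-FLAG RIPs of the 2 lysates had medians on opposite sides of their own inputs. The median difference from input was -0.39 with FLAG:MKRN1 lysate and 0.0658 with FLAG:Ctrl lysate. The Ctrl value is smaller than the SD of 0.15 between the control RIPs, which is a spread over single genes and not the error of a median. That value was 0.00 with the trend with level removed and -0.03 with arrays centred on the kept genes. The opposite sign therefore did not hold under these settings. Of the 71 genes 33, or 46.5%, were below input with FLAG:MKRN1 lysate and above it with FLAG:Ctrl lysate, and 5, or 7.04%, the other way; over all kept genes the shares were 23.7% and 16.7%. For Setdb1 both differences passed 1.5-fold in opposite directions, at -0.97 with FLAG:MKRN1 lysate and 0.76 with FLAG:Ctrl lysate. It was the only kept member of which this held, or 1.41% of the 71, beside 0.791% of all kept genes. A single gene does not set the members apart from that share. Each difference rests on 1 pair of arrays, and the contrast between the lysates was not tested.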

How the results depend on the processing

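No paired analysis was possible because each group has 1 array. A median is taken here to have moved when it shifted by more than 0.15, the SD between the control RIPs over the members. This is a spread over single genes, 13 of them exactly tied between those RIPs, and not the error of a median. Centring each array on its median over all probe sets moved the median of all kept genes to -0.23 and -0.18 against the Ctrl and IgG RIPs; the member medians were then -0.72 and -0.64, with 19 and 18 genes 2-fold lower and 16 called (22.5%, beside 8.42% of all kept genes). Centring on the kept genes, chosen after seeing the data, moved it the other way, to 0.14 for each; the first member median was then -0.35, and 7 were called (beside 3.52%). Either centring shifts all genes alike, so the members' gap to all kept genes, -0.49 and -0.46, cannot change with it. That gap was -0.35 and -0.29 after quantile normalization, where the median against the IgG RIP was -0.30 and 7 were called (beside 3.61%). Removal of the trend with level gave -0.31 and -0.24, with 7 genes 2-fold lower than each control RIP and 7 called (beside 3.01%), and the same gap of -0.31 and -0.24 since the median of all genes is then 0.00. A filter at the 75th percentile, which tests brighter genes, gave -0.68 and -0.63, beside -0.26 and -0.24 over all genes it kept. The gap was then -0.42 and -0.39, and 9 of 48 members were called (18.75%, beside 9.05%). At 1.5-fold, 33, 29 and 25 genes were lower than the Ctrl RIP, the IgG RIP and input, and 28 were called (beside 14.38% of all kept genes). At 4-fold the counts against the single arrays were 3, 2 and 2, and 2 were called (beside 0.200%). Under the alternatives the share of all kept genes was computed only for genes called lower. Counts against a single array under them therefore cannot be set beside all genes. The count of genes called higher was 0 under each alternative run. The share of all kept genes called higher, 1.09% under the main rule, was not computed under the alternatives. With a share this small, a count of 0 does not set the members apart from all kept genes. Arid2, Kdm4c and Kdm5b lost their calls under quantile normalization, trend removal and centring on the kept genes, Kdm4c also with input subtracted first, and Kdm7a under the stricter filter; Setd2 gained one with the median over probe sets.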
